A study of Mus musculus with 8 samples.

Results

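The ERK feedback regulators described here are 10 genes, given as a list by name: the phosphatase genes Dusp4, Dusp5 and Dusp6, the Sprouty genes Spry1, Spry2 and Spry4, the Spred genes Spred1 and Spred2, and the transcription factor genes Etv4 and Etv5. They were read from bulk RNA sequencing of mouse sarcoma cells, out of 35498 genes in all, and all 10 were among the 16309 genes that passed a filter on low counts. The cells were p53-/- Ccne1+ sarcoma cells of the C57BL/6 strain, a line of transformed mesenchymal stem cells that lack p53 and overexpress the gene of cyclin E1. Each of the 4 groups held 2 libraries: a control guide RNA (sgSCR), a guide against Mif (sgMif), a control short hairpin RNA (shSCR) and a hairpin against Mif (shMif). The genotype labels are Mif-knockout for sgMif, Mif-knockdown for shMif and Mif-wildtype for both control groups. Guide cells carried Cas9, and the series text places Cas9 in the hairpin cells as well, while the growth protocol names it for guide samples. Cells were transplanted subcutaneously on scaffolds of polyurethane, and tumour cells were sorted from digested tumours on a fluorescent marker. Neither the age of the mice nor the identity of the marker was given in the sources. All groups share 1 cell line. Whether the libraries of a group come from different tumours or animals is not stated in the labels, so the p-values rest on a spread between libraries that may be technical.

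ERK is the last kinase of the cascade that runs from growth factor receptors through RAS, RAF and MEK, and its output is held in check by genes that it switches on itself. The dual-specificity phosphatases remove the activating phosphates from ERK, Sprouty proteins interfere between the receptor and RAF, and Spred proteins bring the RAS inhibitor neurofibromin to the membrane. Etv4 and Etv5 encode ETS-family transcription factors whose transcription follows ERK activity, so the transcripts of all of these genes are often read together as a measure of ERK output in tumour cells. The targeted gene, Mif, codes for a secreted cytokine whose binding to its receptor CD74 is known to activate ERK.

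The DNA in front of the phosphatase genes Dusp5 and Dusp6 is printed because these related genes had different orders over the libraries, as described further on. RefSeq promoter windows of build GRCm38.p6 were matched for 7 of the 10 genes, and Dusp4, Spry4 and Etv4 were not matched. The 250 bases before each RefSeq start were searched on both strands for the CArG box, the site of serum response factor, for TGANTCA (AP-1), for CCGGAA (ETS) and for TGACGTCA (the cyclic AMP response element). Of the 7 genes, 1 held any of these motifs. Dusp5 held 2 CArG boxes end to end, at chr19:53529063-53529072 and chr19:53529073-53529082, shown in capitals. A CArG box was found in 1.47% of 32851 windows of the same length, and 2 or more in 6 windows (0.0183%). The other motifs were present in 6.75% (TGANTCA), 12.0% (CCGGAA) and 1.55% (TGACGTCA) of windows. A match of letters is a description and not a measured binding site, and the absence of a match says only that these letters are not in this window. Both genes lie on the plus strand, and the bases shown run 5′ to 3′ up to the base before the GENCODE start, Dusp5 at chr19:53528895-53529108 and Dusp6 at chr10:99262981-99263230.
Dusp5: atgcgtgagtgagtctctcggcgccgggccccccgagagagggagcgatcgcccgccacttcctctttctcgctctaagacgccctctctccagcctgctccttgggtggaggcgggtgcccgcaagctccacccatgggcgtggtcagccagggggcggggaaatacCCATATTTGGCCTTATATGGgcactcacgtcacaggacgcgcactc
Dusp6: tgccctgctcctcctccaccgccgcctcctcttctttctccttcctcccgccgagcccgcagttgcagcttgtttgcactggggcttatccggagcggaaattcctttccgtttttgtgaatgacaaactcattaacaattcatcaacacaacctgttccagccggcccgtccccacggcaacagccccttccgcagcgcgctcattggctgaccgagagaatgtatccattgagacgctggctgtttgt

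Total estimated counts ran from 19042235 to 51819308 reads per library. Mif itself was at 377 and 455 CPM (normalised read counts scaled to library size) in sgSCR 1 and 2, 221 and 222 in sgMif, 170 and 375 in shSCR, and 277 and 222 in the libraries labelled shMif. On the log2 scale Mif stood at -0.91 ± 0.32 (SE, edgeR adjusted p = 0.215) for the guide and at -0.13 ± 0.32 (adjusted p = 0.925) for the hairpin. The sgMif libraries, labelled as knockout, thus still held Mif transcript, and the transcript did not separate the hairpin groups, and the libraries labelled shMif are called so throughout. The 10 mesenchymal marker genes summed to 17055 to 37379 CPM, with Col1a1 at 1979 to 8924 CPM and Vim at 5938 to 8596. Others on that list were lower, with Nt5e at 57.4 to 227 CPM, Thy1 at 2.70 to 24.3 and Eng at 2.10 to 17.8. Markers of other cells were present at lower sums: 105 to 453 CPM over 13 macrophage genes, 248.5 to 474 over 6 pericyte genes, 40.9 to 282 over 10 endothelial genes, 1.64 to 10.3 over 7 T or NK cell genes, 3.65 to 34.0 over 6 B cell genes and 2.42 to 7.27 over 6 keratinocyte genes. Most of the pericyte sum was on Cspg4, at 234 to 464 CPM, and no other gene of that list exceeded 6.69 CPM. The endothelial gene Pecam1 was at 20.8 to 261 CPM, and no other gene of its list exceeded 26.0 CPM. Among the defining markers, the keratinocyte gene Krt5 was at 0 in 7 libraries. In such bulk samples, fewer cells of a type and less RNA per cell cannot be told apart. Reads on 1406 olfactory receptor genes, which these cells are not known to use, made up 380 to 553 CPM in sgMif 2, shSCR 2 and shMif 2 and 1330 to 2544 CPM in the other 5 libraries, a division made after the data were seen.

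Set against each other per length, in TPM (the authors' unit, corrected for transcript length and library size), the 10 genes spanned a wide range of levels. Dusp6, with 84.8 to 132 TPM over the 8 libraries, and Dusp4, with 31.3 to 142, had the highest means, at 99.0 and 94.1 TPM. Their order is not settled: Dusp4 exceeded Dusp6 in 5 of 8 libraries, and over protein-coding transcripts alone the mean of Dusp6 was 90.8 TPM, below that of Dusp4. Etv4 lay at 53.4 to 81.4, Spred1 at 38.2 to 53.1, Spry2 at 21.3 to 60.8, Dusp5 at 23.1 to 40.6 and Spred2 at 25.8 to 38.8. The lowest 3 were Etv5 at 8.95 to 15.9, Spry1 at 4.18 to 34.9 and Spry4 at 3.51 to 5.14 TPM. Ranges of neighbours in this order overlapped except between Etv4 and Spred1 and between Spred2 and Etv5. The place of Etv4 also depends on which transcripts are counted. Of its 12 annotated transcripts 3 are protein-coding, and these held only 17.0 to 30.1% of its TPM and 45.9 to 67.0% of its reads, or 10.6 to 21.7 TPM, below Spred2 and above Etv5 in each of the 8 libraries. The rest was on transcripts annotated as processed transcripts, of which Etv4-207 held 25.6 to 43.4% of the gene's TPM. For Dusp6 the 2 coding transcripts of 4 held 85.9 to 97.7% of TPM.

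**Figure D1:**
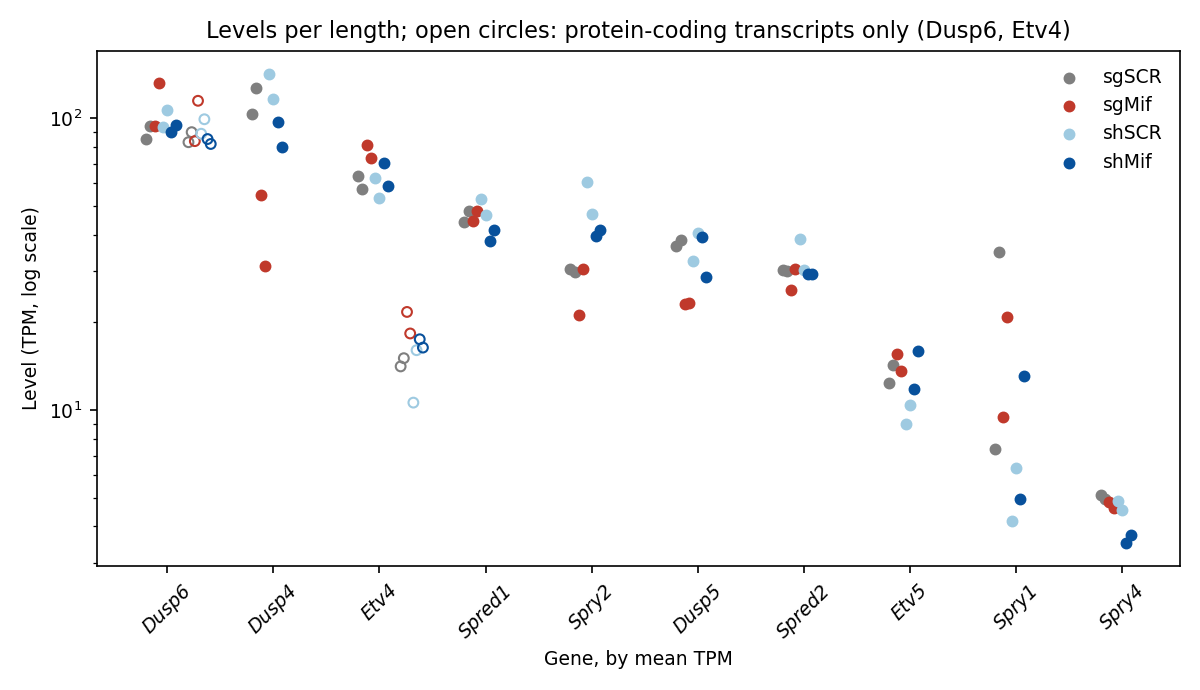
Level of each gene in TPM (log axis) in the 8 libraries, ordered by mean, with filled circles for all transcripts coloured by group and open circles for protein-coding transcripts alone in Dusp6 and Etv4. The sgMif libraries of Dusp4, at 54.7 and 31.3 TPM, lie below its other libraries, and the coding transcripts of Etv4 lie at 10.6 to 21.7 TPM.

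The spread over the 8 libraries also differed between the genes. On the normalised scale the highest library exceeded the lowest 11.4-fold for Spry1, 3.985-fold for Dusp4 and 3.06-fold for Spry2. For the other 7 genes the same ratio lay between 1.33 (Spred2) and 1.85 (Dusp5). This ratio measures the range over all libraries and not the separation of groups, which is given with each gene below.

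**Figure D2:**
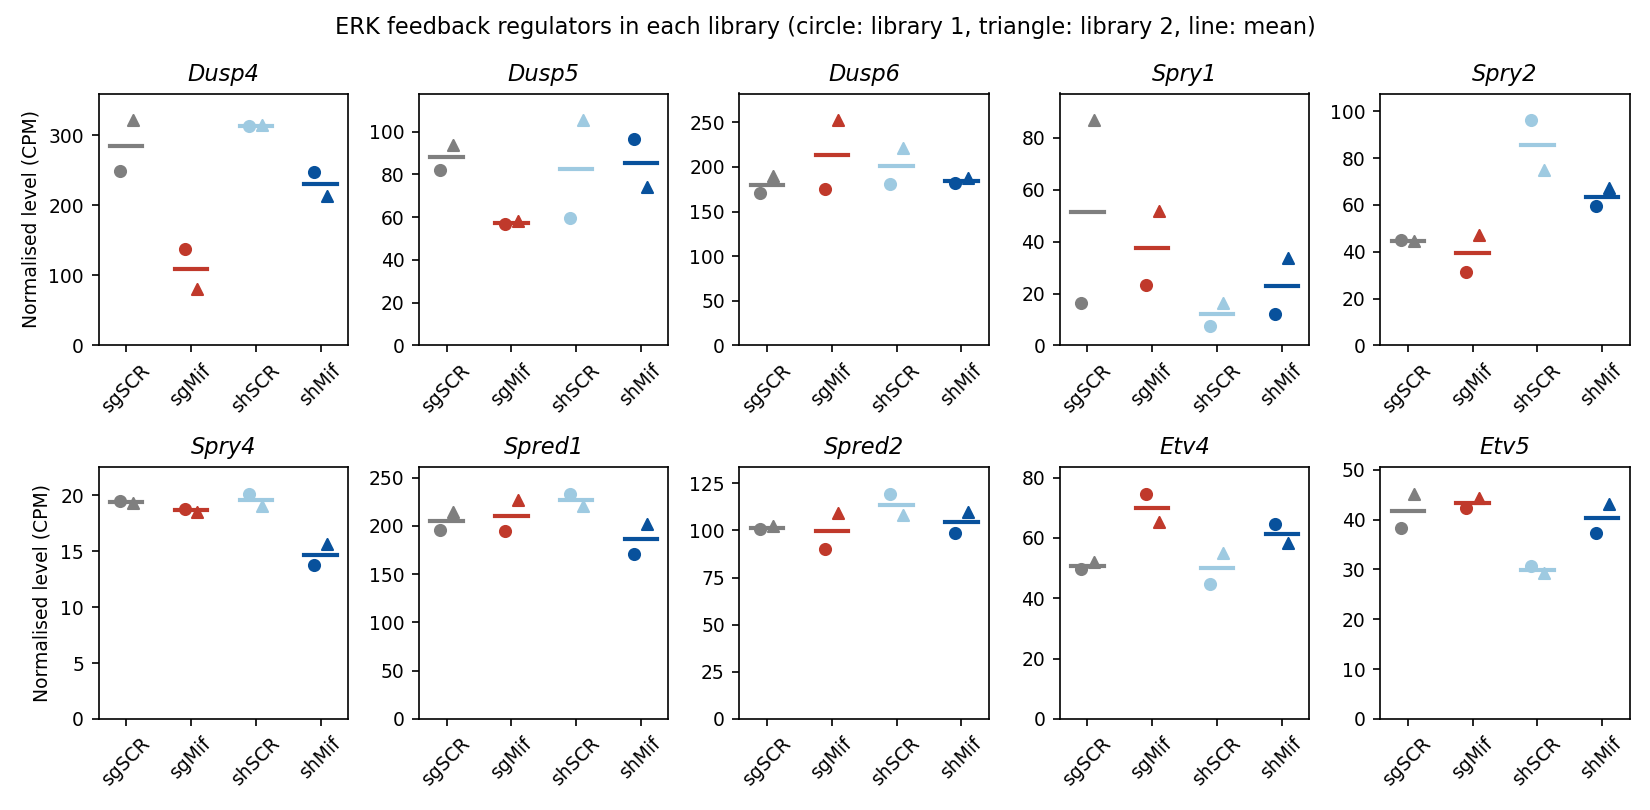
Normalised level (CPM, linear axes from 0) of each of the 10 genes in every library, with circles for library 1, triangles for library 2 and lines for group means. Dusp4 and Dusp5 are lowest in both sgMif libraries, Spry2 is highest in the shSCR libraries, and the triangle of Spry1 is above the circle in each group.

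Dusp4, a nuclear phosphatase that acts on ERK and on the stress kinases (ENSMUSG00000031530, chr8:34807297-34819894, plus strand, mm10), stood furthest from its control in the sgMif comparison. In sgSCR 1 and 2 its level was 248.9 and 321 CPM, and in sgMif 1 and 2 it was 138 and 80.6 CPM. In shSCR it was at 313 and 314 CPM, and in the libraries labelled shMif at 248 and 214 CPM. Both sgMif libraries lay below the other 6, which held for 7.54% of all genes tested. All 4 libraries with a Mif guide or hairpin lay below all 4 controls, which held for 1.77% of genes and among the 10 also for Spry4, though shMif 1 at 247.7 CPM lay just under sgSCR 1 at 248.9 CPM. Mean levels were 285 ± 51.3 CPM in sgSCR and 109 ± 40.6 CPM in sgMif (each SD, n = 2), a 2.61-fold difference. On the log2 scale it was -1.38 ± 0.25 (SE), which did not pass the threshold of 0.05 in edgeR's quasi-likelihood test over all genes (adjusted p = 0.0517). DESeq2 gave -1.40 with an adjusted p of 2.447e-06, and over all alternatives the adjusted p ran from 1.607e-11 to 0.264 with log2 fold changes of -1.82 to -1.04. Without sgMif 2 the value was -1.04 (edgeR adjusted p = 0.206), and without sgMif 1 it was -1.82 (adjusted p = 0.0668). The threshold was passed without shSCR 1 or without shSCR 2, libraries outside this contrast that enter only through the shared spread (adjusted p = 0.0356 and 0.0398). In the 5 libraries with many olfactory receptor reads, which hold sgMif 1 alone of its group, it was -1.05 (adjusted p = 0.00685, with 1 residual degree of freedom from the sgSCR pair).

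In the hairpin comparison Dusp4 stood at -0.44 ± 0.25 (SE, edgeR adjusted p = 0.605), with groups that did not overlap. The difference between the guide and hairpin effects was 0.94 ± 0.35 (SE, edgeR adjusted p = 0.261, with 0.01405 to 0.697 over the alternatives), so a smaller effect of the hairpin was not shown. A joint effect of both systems was -0.91 ± 0.24 (SE, edgeR adjusted p = 0.321), and DESeq2 gave the same size with an adjusted p of 0.0141, within a range of 2.029e-06 to 0.800 over the alternatives. The control groups differed in Dusp4 by 0.14 ± 0.25 (edgeR adjusted p = 0.767). The summed level of the 13 macrophage markers was also lower in sgMif, at 132 and 105 CPM, than in sgSCR, at 453 and 201 CPM. With edgeR 2 of 13 passed the threshold, both lower, against 0.987% of all genes. Negative values were found for 12 of 13, beside 8242 of 16309 genes in all. The sum in sgSCR 1 included 107 CPM of Mrc1 and 103 of Cd163, which were at 2.01 and 0 CPM in sgMif 1. Lyz2 was at 38.2 and 30.3 CPM in sgSCR and at 64.5 and 30.6 in sgMif. In the hairpin system the macrophage sum was 222 and 261 CPM in shSCR and 402 and 212 CPM in the libraries labelled shMif. The part of these cells in the Dusp4 values was not tested.

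Dusp5, a nuclear phosphatase specific for ERK (chr19:53529109-53542431, plus strand, mm10), had the same order in the guide libraries with a smaller distance. It was at 82.2 and 94.0 CPM in sgSCR and at 56.8 and 58.0 CPM in sgMif, the lowest 2 values of the 8. The shSCR libraries were far apart, at 59.7 and 105 CPM, and the libraries labelled shMif were at 96.6 and 74.2 CPM. For the guide Dusp5 stood at -0.62 ± 0.26 (SE, edgeR adjusted p = 0.288, with 0.0259 to 0.578 over the alternatives) on the log2 scale, and for the hairpin at 0.05 ± 0.26 (edgeR adjusted p = 0.970). The latter was -0.31 without shSCR 1, -0.15 without shMif 1, 0.22 without shMif 2 and 0.52 without shSCR 2, so its sign rests on single libraries. The difference between the systems was 0.67 ± 0.36 (SE, edgeR adjusted p = 0.406), and 1.33 in the olfactory-rich libraries (adjusted p = 0.0112, the lowest of alternatives that ran up to 0.860). There sgMif, shSCR and shMif hold 1 library each, so the spread comes from the sgSCR pair alone.

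Dusp6, the cytoplasmic phosphatase of ERK and a common readout of the pathway (chr10:99263231-99267489, plus strand, mm10), did not share this order. It was at 171 and 189 CPM in sgSCR, 175 and 252 in sgMif, 181 and 221 in shSCR, and 182 and 188 in the libraries labelled shMif. The groups overlapped in both comparisons. Guide and hairpin values on the log2 scale were 0.25 ± 0.19 (SE, edgeR adjusted p = 0.544) and -0.12 ± 0.19 (adjusted p = 0.867). Per length, Dusp4 exceeded Dusp6 in both sgSCR libraries, with TPM ratios of 1.22 and 1.35, and was below it in both sgMif libraries, with ratios of 0.579 and 0.237. The ratio was 1.51 and 1.09 in shSCR and 1.08 and 0.838 in the libraries labelled shMif. Dusp6 was thus the more abundant of these transcripts in both sgMif libraries and in shMif 2, and the ratio was given no test.

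**Figure D3:**
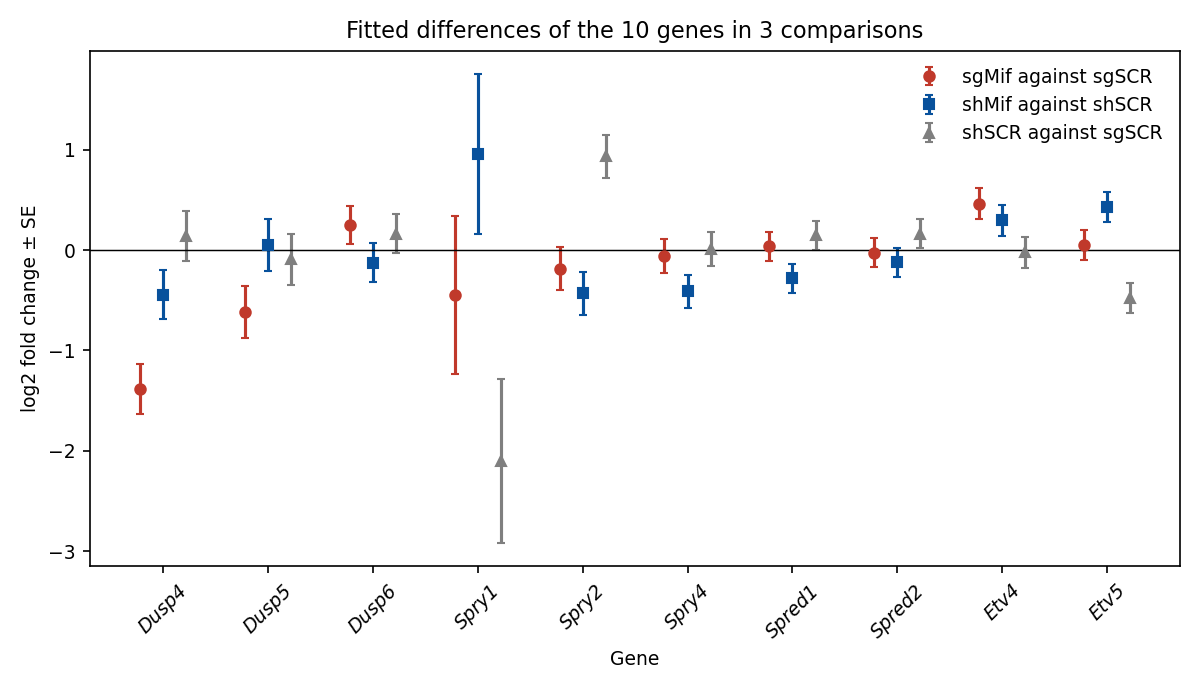
Log2 fold change with its standard error for each gene in sgMif against sgSCR, shMif against shSCR and shSCR against sgSCR, from the fit of all 8 libraries. Dusp4 is lowest for the guide at -1.38, and Spry2 at 0.93 and Spry1 at -2.10 stand furthest apart between the control groups.

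Across the 10 genes, 0 passed the threshold for the guide with edgeR, against 0.987% of all genes tested. At an unadjusted p under 0.05 there were 3, Dusp4 and Dusp5 lower and Etv4 higher, against 16.6% of all genes (7.51% lower and 9.09% higher), and DESeq2 called 1, Dusp4, against 6.58%. Groups did not overlap for 3 lower genes and 1 higher gene, against 24.2% and 27.1% of all genes. The median log2 fold change of the 10 was -0.04 and that of all genes tested -0.01. For the hairpin, 0 of 10 passed with edgeR against 0.0184% of all genes, 0 with DESeq2 against 1.38%, and 2 were at an unadjusted p under 0.05 (Spry4 lower, Etv5 higher) against 9.26% (5.08% lower and 4.18% higher). Hairpin groups did not overlap for 4 lower and 2 higher genes, against 22.3% and 19.4%. There the median was -0.12 beside 0.03 for all genes. For the difference between the systems 0 of 10 passed with edgeR (0.092% of all genes) and 0 with DESeq2 (4.54%). Only Dusp4 was at an unadjusted p under 0.05 there, with a positive value, against 15.8% of all genes (6.83% higher and 8.93% lower). For the joint effect 0 passed with edgeR (0.0% of all genes), while DESeq2 called 1, Dusp4 (1.98%). Dusp4 lower and Etv4 higher were at an unadjusted p under 0.05, against 8.01% (3.73% lower and 4.27% higher). With 10 genes, a count of 0 to 3 is read beside these shares as no more than a description. The contrast of the controls, given with each gene, uses the same sgSCR and shSCR libraries as the guide and hairpin comparisons, so these values are not independent.

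Among the Sprouty genes, which encode inhibitors that act between receptor and RAF, Spry2 had the smallest edgeR p between the control groups. The fitted difference of Spry1 there was larger, with a wider standard error. Spry2 (chr14:105891947-105896819, minus strand, mm10) was at 45.1 and 44.5 CPM in sgSCR and at 96.1 and 74.9 CPM in shSCR. It was at 31.4 and 47.3 CPM in sgMif and at 59.5 and 67.2 CPM in the libraries labelled shMif. Every hairpin library lay above every guide library, an order whose share over all genes was not counted. For the control groups alone, shSCR lay above sgSCR without overlap in 28.4% of genes tested. The difference of shSCR from sgSCR was 0.93 ± 0.22 on the log2 scale (SE, edgeR adjusted p = 0.0555, DESeq2 adjusted p = 0.00190), with adjusted p values of 1.955e-05 to 0.238 over the alternatives. Within the comparisons, Spry2 stood at -0.19 ± 0.22 for the guide (edgeR adjusted p = 0.702) and at -0.43 ± 0.21 for the hairpin (adjusted p = 0.576). Guide and hairpin vectors, and whatever else differed between the systems, cannot be told apart in this contrast.

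Spry1 (chr3:37639947-37644598, plus strand, mm10) varied widely between the libraries of a group, most of all in sgSCR. It was at 16.4 and 86.6 CPM in sgSCR, 23.2 and 51.9 in sgMif, 7.60 and 16.3 in shSCR, and 12.3 and 33.8 in the libraries labelled shMif. The library numbered 2 held more Spry1 than the library numbered 1 in all 4 groups, which also held for Dusp6 and for 10.1% of all genes tested. In each group the library numbered 2 also held fewer olfactory receptor reads, and the part of that difference in the Spry1 values was not tested. On the log2 scale Spry1 stood at -0.45 ± 0.78 (SE, edgeR adjusted p = 0.811) for the guide and 0.95 ± 0.80 (adjusted p = 0.719) for the hairpin, and the former was 1.215 without sgSCR 2, 0.02 without sgMif 1 and -1.21 without sgSCR 1. The hairpin value was 0.03 without shMif 2, 0.51 without shSCR 1 and 1.61 without shSCR 2. Between the control groups it was -2.10 ± 0.82 (edgeR adjusted p = 0.177, with 1.257e-18 to 0.769 over the alternatives), and -0.43 without sgSCR 2. The hairpin value passed only without the filter on low counts (adjusted p = 0.00175, with alternatives up to 1.0). In that run the standard error of Spry1 for the hairpin was 0.22, against 0.80 in the main fit. Among the 3 transcripts of Spry1, Spry1-201 held 63.6 to 95.5% of TPM in 7 libraries and 0% in shSCR 1, where all of the gene's TPM was on Spry1-203.

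Spry4 (chromosome 18, minus strand) was the lowest of the 10 per length and rested on 267 to 942 reads per library. It was at 19.5 and 19.3 CPM in sgSCR, 18.8 and 18.5 in sgMif, 20.1 and 19.0 in shSCR, and 13.7 and 15.7 in the libraries labelled shMif. All 4 libraries with a Mif guide or hairpin thus lay below all 4 controls, as for Dusp4. The guide groups did not overlap but had means of 19.4 ± 0.14 and 18.7 ± 0.19 CPM (SD, n = 2). The libraries labelled shMif were lower than the other 6, an order whose share over all genes was not counted. Against shSCR alone, shMif was lower without overlap in 22.3% of genes tested. The hairpin log2 fold change was -0.41 ± 0.17 (SE, unadjusted p = 0.0384 and adjusted p = 0.522 in edgeR), and the guide one was -0.06 ± 0.17 (adjusted p = 0.891).

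The Spred genes, whose products recruit neurofibromin to RAS, were the steadiest of the list. Spred1 was at 196 and 214 CPM in sgSCR, 194 and 227 in sgMif, 233 and 221 in shSCR, and 171 and 202 in the libraries labelled shMif. This gave 0.04 ± 0.14 on the log2 scale (SE, edgeR adjusted p = 0.924) for the guide and -0.28 ± 0.14 (adjusted p = 0.582) for the hairpin. Spred2 lay between 90.0 and 119 CPM in all 8 libraries, with -0.03 ± 0.14 (adjusted p = 0.948) for the guide and -0.12 ± 0.14 (adjusted p = 0.819) for the hairpin. For both genes the standard error was 0.14, and the larger value of -0.28 for Spred1 did not pass either. Modest differences in these genes may thus have gone undetected.

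Etv4, an ETS-family activator, was the only member higher in all 4 libraries with a Mif guide or hairpin than in all 4 controls, an order found in 1.64% of genes. Etv4 was at 49.7 and 51.9 CPM in sgSCR, 74.6 and 65.4 in sgMif, 44.9 and 55.2 in shSCR, and 64.6 and 58.3 in the libraries labelled shMif. On the log2 scale Etv4 stood at 0.46 ± 0.16 (SE, edgeR adjusted p = 0.195) for the guide and 0.30 ± 0.16 (adjusted p = 0.592) for the hairpin, with a joint effect of 0.38 ± 0.12 (adjusted p = 0.420). None of the 3 passed, and over the alternatives the lowest adjusted p values were 0.1145, 0.170 and 0.125 and the highest 0.474, 1.0 and 0.917. In protein-coding transcripts alone the guide value was 0.45 (edgeR adjusted p = 0.432). In TPM the shMif and shSCR libraries overlapped, at 70.6 and 58.8 against 62.4 and 53.4.

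Etv5, the close relative of Etv4 (chr16:22381309-22439719, minus strand, mm10), was lowest in the hairpin controls. It was at 38.3 and 45.1 CPM in sgSCR, 42.4 and 44.2 in sgMif, 30.7 and 29.3 in shSCR, and 37.4 and 43.1 in the libraries labelled shMif. The guide gave a log2 fold change of 0.05 ± 0.15 (SE, edgeR adjusted p = 0.889) and the hairpin 0.43 ± 0.15 (unadjusted p = 0.0214, adjusted p = 0.489). The hairpin control differed from the guide control by -0.48 ± 0.15 (edgeR adjusted p = 0.1115, with 0.0574 to 0.416 over the alternatives). Both libraries labelled shMif thus lay above both shSCR libraries and close to the guide libraries, which spanned 38.3 to 45.1 CPM. Between the control groups, 0 of the 10 genes passed with edgeR against 4.02% of all genes, while 3 were at an unadjusted p under 0.05 (Spry2 higher, Spry1 and Etv5 lower) against 22.9% (12.9% higher and 10% lower), and DESeq2 called 1, Spry2, against 12.9%. Control groups did not overlap for 3 higher and 2 lower genes, against 28.4% and 26.3%.

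The other genes of the pathway were read from lists of 18 cascade components, 17 further inhibitors and 15 ERK outputs, and all 50 were tested. For the guide, 0 of 50 passed with edgeR, against 0.987% of all genes. At an unadjusted p under 0.05 were 5 higher and 7 lower genes, against 9.09% and 7.51% of all genes, and DESeq2 called 2 higher and 6 lower, against 6.58% in either direction. Median log2 fold changes were 0.09 for the cascade, -0.01 for the inhibitors and -0.32 for the outputs, beside -0.01 for all genes tested. Of the 15 outputs 12 had negative values, beside 8242 of 16309 genes in all. For the hairpin the median of the outputs was 0.14, with 8 of 15 positive, beside 0.03 for all genes. Between the control groups, where Mif was not targeted, it was -0.40, with 11 of 15 negative, beside -0.04 for all genes. In the cascade, Map2k1, the gene of the ERK kinase MEK, had 97.6 and 118 CPM in the sgSCR libraries against 64.2 and 72.3 with the Mif guide, or -0.66 ± 0.14 (SE, edgeR adjusted p = 0.0770, alternatives 0.00165 to 0.349). The RAS gene Hras stood at 0.55 ± 0.15 (SE, edgeR adjusted p = 0.123, alternatives 0.0719 to 0.389). Among the inhibitors, Dusp10, a phosphatase of the stress kinases, had 60.0 and 65.5 CPM in the sgSCR libraries against 34.0 and 42.4 with the Mif guide, or -0.71 ± 0.16 (adjusted p = 0.0775, alternatives 0.00324 to 0.353). Spred3 stood at -0.57 ± 0.16 (adjusted p = 0.128, alternatives 0.0386 to 0.467), and Rasa1, which encodes a RAS GTPase activator, at 0.69 ± 0.18 (adjusted p = 0.116, alternatives 0.00551 to 0.403). Among the outputs, Ier3 stood at -1.03 ± 0.25 (adjusted p = 0.102, alternatives 2.364e-06 to 0.424) and Etv1, the third gene of the Etv4 and Etv5 family, at -0.52 ± 0.14 (adjusted p = 0.123, alternatives 0.0243 to 0.405). DESeq2 called these last 4 genes, Map2k1 and Dusp10.

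Egr1, an immediate-early transcription factor gene induced by ERK, had values on opposite sides of the controls in the 2 systems. It was at 493 and 485 CPM in sgSCR and 215 and 196 CPM in sgMif, but at 63.3 and 112 CPM in shSCR and 224 and 182 CPM in the libraries labelled shMif. These gave -1.25 ± 0.25 (SE, edgeR adjusted p = 0.0643) for the guide and 1.21 ± 0.25 (adjusted p = 0.352) for the hairpin, and their difference was 2.46 ± 0.35 (adjusted p = 0.0719). With DESeq2 the adjusted p values were 2.445e-05, 0.000212 and 7.552e-10, and over the alternatives they ran from 1.808e-09 to 0.281, 2.856e-08 to 0.999 and 3.789e-18 to 0.229. Between the control groups Egr1 fell by 2.48 ± 0.26 on the log2 scale (edgeR adjusted p = 0.00471), which made it 1 of 3 among the 50 genes that passed there, and it passed in every alternative run. The others were Dusp2, an immediate-early phosphatase gene, which fell by 1.24 ± 0.24 (adjusted p = 0.0370), and Myc, which fell by 0.65 ± 0.14 (adjusted p = 0.0490). These last calls were lost when sgSCR 1, sgSCR 2, sgMif 1, sgMif 2, shSCR 1, shMif 1 or shMif 2 was left out, with adjusted p values up to 0.192 for Dusp2 and 0.219 for Myc, and in the fit with the replicate block (0.128 and 0.126). Over all alternatives, 19 values of Dusp2 and Myc in this contrast no longer passed, so runs beyond those named also lost a call. Dusp2 was at 59.7 and 71.6 CPM in sgSCR and 21.7 and 33.8 CPM in shSCR, and Myc at 137 and 133 against 83.1 and 88.6 CPM. The summed level of 10 genes known to respond to tissue digestion and sorting was 4778 CPM in shSCR 1 and 8110 to 13893 CPM in the other 7 libraries. Jun, at 2031 to 5367 CPM, and Fosb, at 1368 to 2913 CPM, were the highest of them. The list held Jun, Junb, Jund, Fosb, Atf3, Nr4a1, Hspa1a, Hspa1b, Hspb1 and Dnajb1. Of these genes, which do not include Egr1, 10 of 10 had negative values for the guide (median -0.25), 9 of 10 positive ones for the hairpin (median 0.64) and 9 of 10 negative ones between the controls (median -0.41). Over all 16309 genes, 8242 were negative for the guide, 8639 positive for the hairpin and 8546 negative between the controls. With edgeR 0 of 10 passed in each of these contrasts, against 0.987%, 0.0184% and 4.02% of all genes. At an unadjusted p under 0.05 in edgeR were 2, 0 and 1 of the 10, against 16.6%, 9.26% and 22.9% of all genes. DESeq2 called 0, 0 and 1, against 6.58%, 1.38% and 12.9%. The part of digestion and sorting in the Egr1, Dusp2 and Myc values was not tested. Whether the summed level reflects handling apart from ERK output was not tested either. Between the control groups, the 10 feedback regulators included no call with edgeR, while DESeq2 called Spry2. Dusp4 stood at 0.14 there.

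**Figure D4:**
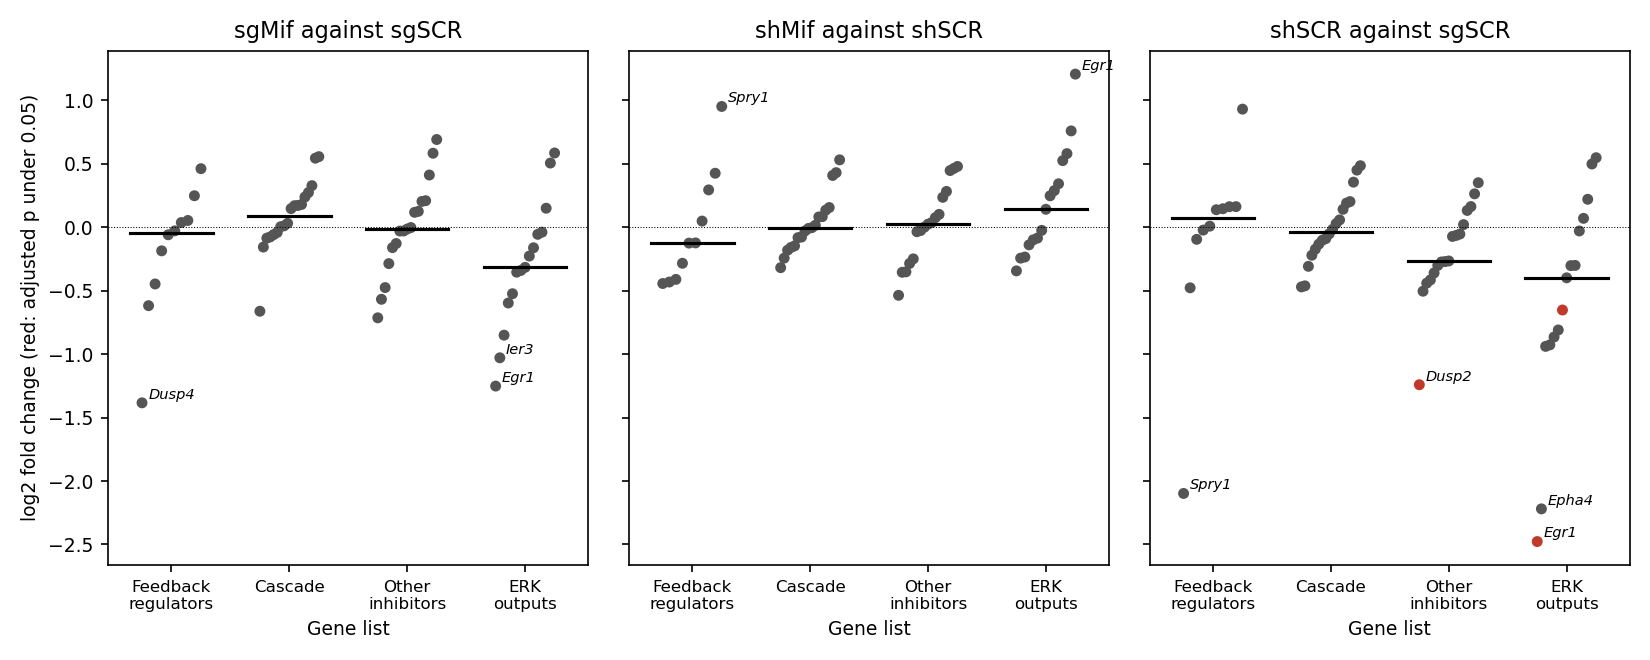
Log2 fold change of every gene of the 4 lists in 3 comparisons, with a black line at each list's median and red points for an edgeR adjusted p under 0.05. No point is red for the guide or the hairpin, and Egr1, Dusp2 and Myc are red between the control groups.

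The genes whose profile over the 8 libraries was most like that of 3 members were found by the root mean square difference of log2 CPM after each gene's own mean was subtracted, among 11048 genes. For Dusp6 they were Dnase1l1 (0.066 log2 units), Cbfb (0.0718), Mapk1ip1l (0.0776) and Nxpe3 (0.0782), where Dusp6 itself varied by 0.18 about its mean. For Spry4 they were Slc17a5 (0.0485), Lias (0.0733), Clcn5 (0.0764) and Fubp3 (0.0797), with 0.18 for Spry4 itself. For Etv4 they were Mtcl1 (0.037), Pfn1 (0.0763), Sap130 (0.0774) and Nfatc2ip (0.0827), with 0.22 for Etv4 itself. No other member was among the nearest 4 of these genes. The nearest member to Dusp6 was Spred1 at 0.16, that to Spry4 was Spred1 at 0.12, and that to Etv4 was Etv5 at 0.23. The likeness is a description over 8 libraries that share the line and the processing.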

How the data were processed

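Total RNA was extracted with TRIzol from sorted tumour cells, per the labels' protocols, and the authors processed reads with Trimmomatic and Salmon against mm10, per the submitters' processing notes. Their versions and options, the library kit, the strandedness and the transcript release were not given in the sources. The deposited tables give, per transcript, an estimated count of reads and a TPM value, per the file headers. Of 116546 transcripts, 115977 matched GENCODE release M21 without their version, and the 569 others held 0.101 to 0.205% of reads. Both values were summed per gene, and estimated counts were rounded. Genes were kept by filterByExpr (minimum count 10, minimum total 15), scaled by TMM and tested with edgeR 4.0.16 in R 4.3.3 (quasi-likelihood, Benjamini-Hochberg adjustment at 0.05 over 16309 genes). The fit of 4 group means had 4 residual degrees of freedom and the joint fit of system and Mif label 5. Standard errors are the log2 fold change over the root of its F statistic. Fits were tested on simulated data.

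The 10 genes and the lists were chosen with earlier results of these data known. Named from the lists are genes past the threshold in any comparison and the 3 of each list with the smallest p for the guide, except 1 that is not reported here. Likeness was computed among genes whose average log2 CPM reached 1, without predicted genes and pseudogenes. Alternatives were RLE size factors, DESeq2 1.42.0, no filter, length-scaled counts, protein-coding transcripts, a replicate block, each system alone, the 5 libraries with over 1000 CPM on olfactory receptor genes, and leaving out each library. When 1 library of a group is left out, the other is assumed to vary like the remaining groups. Tables were handled with Python 3.11.15 and pandas 2.3.3.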

Additional observations from a re-analysis of the deposited data

How the results depend on the processing

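The 10 genes rested on at least 239 reads per library, and each group held 2 libraries. Whether depth or the number of libraries set the count of calls was not tested. Of the single-gene values under the alternatives, 680 kept direction and side of the threshold, 51 passed it only there, 19 no longer passed it (Dusp2 and Myc between the controls) and 30 changed sign. The cause of these changes was not tested.

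In the order guide, hairpin, difference, controls and joint effect, edgeR called 161, 3, 15, 655 and 0 genes. DESeq2 called 990, 182, 654, 1948 and 279, and at an unadjusted p under 0.05 edgeR gave 1306 genes for the joint effect. Without the filter on low counts the counts were 1494, 662, 1306, 2425 and 549. For the guide, the lowest edgeR adjusted p values of Dusp4 (1.607e-11), Egr1 and Ier3 over the alternatives came from that run. Guide standard errors there were smaller for some genes, with 0.18 against 0.25 in the main fit for Dusp4 and 0.21 against 0.78 for Spry1. For others they were larger, with 0.26 against 0.17 for Spry4. Length-scaled counts gave 18, 5, 0 and 312, protein-coding transcripts gave 0 for the difference, and each system alone gave 0 for the hairpin. The 5 libraries with many olfactory receptor reads, with 1 residual degree of freedom, gave 534, 1162, 999 and 2747. Leaving out a library gave 0 to 356 for the guide, 0 to 758 for the hairpin, 0 to 527 for the difference, 60 to 1848 for the controls and 0 to 1 for the joint effect. The guide count was 0 without sgSCR 1, sgSCR 2 or sgMif 2, and 356 without shSCR 1, and the hairpin count was 758 without shSCR 2.

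Of the 10 genes edgeR called 0 in each comparison. DESeq2 called 1 each for the guide, the controls and the joint effect. Without the filter 2 were called for the guide, 1 for the hairpin, 2 for the difference, 2 for the controls and 1 for the joint effect. The olfactory-rich libraries gave 1 for the guide, 1 for the difference and 3 for the controls. Leaving out a library gave 0 to 1 for the guide and 0 to 1 for the controls. These were Dusp4, called without shSCR 1 (edgeR adjusted p = 0.0356) or shSCR 2 (0.0398), and Spry2, called without sgMif 1 (0.0403), sgMif 2 (0.0403) or shSCR 2 (0.0234).

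The replicate number as a block within each system gave 263, 14, 50 and 210 genes, called 0 of the 10 and ended the calls of Dusp2 and Myc between the controls. Dusp4 for the guide then stood at -1.42 (edgeR adjusted p = 0.0511). Spry1 under the block stood at -0.13 ± 0.29 for the guide (SE, edgeR adjusted p = 0.852), 0.88 ± 0.29 for the hairpin (0.465) and -1.54 ± 0.37 between the controls (0.0964). The numbers were not shown to pair the samples: deviations of same-numbered libraries correlated at 0.15 to 0.37 in all 6 pairs of groups, but each comparison has only 2 numbers and the labels tie them to no shared animal or batch.

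Sign changes were all in values that had not passed. For the guide, Dusp6 was -0.0372 and Spred1 -0.0781 in the olfactory-rich libraries, and Spred1 was -1.752e-05 in protein-coding transcripts. Leaving out a library gave -1.21 to 1.215 for Spry1, -0.507 to 0.0847 for Spry2, -0.0300 to 0.492 for Dusp6, -0.0708 to 0.150 for Spred1, -0.167 to 0.110 for Spred2 and -0.0661 to 0.194 for Etv5. For the hairpin, Dusp5 was -0.153 with length-scaled counts and -0.308 to 0.515 leaving out a library, and Dusp6 was 0.00149 in the olfactory-rich libraries and -0.267 to 0.0274 leaving out a library. Between the controls, Dusp5 was 0.0718 and Etv4 0.0465 with length-scaled counts, and Etv4 was 0.00898 without the filter. Spry4 was -0.0112 with RLE factors, -0.0116 with DESeq2, -0.0015 in protein-coding transcripts and -0.0243 with the replicate block. Leaving out a library gave -0.0260 to 0.368 for Dusp4, -0.555 to 0.268 for Dusp5, -0.0207 to 0.0556 for Spry4 and -0.172 to 0.131 for Etv4.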
